A study of Schizosaccharomyces pombe with 14 samples.

Results

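The fission yeast annotation used for the count table has 1541 rows of long non-coding RNAs (lncRNAs, rows named SPNCRNA), and 756 of the 1537 rows considered lie antisense to a protein-coding gene. A row was taken as antisense when at least 50% of its span, from the smallest start to the largest end, was covered by the span of 1 protein-coding gene on the opposite strand. SPNCRNA.103, SPNCRNA.128, SPNCRNA.214 and SPNCRNA.445 were left out by the same rule. The choice used positions only, and no count. The last row inside the rule overlapped its gene by 50% of its span and the nearest row outside by 49.6%. The 756 antisense lncRNAs face 707 different genes, which are called their sense partners here, in a table of 7049 rows.

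The RNA-seq data cover 3 experiments of Schizosaccharomyces pombe with 14 libraries. In the anchor-away experiment, 2 Pac1-AA libraries, in which Pac1 carries an FRB-GFP tag (Pac1-FRB-GFP::natMX6), were compared with 2 CTL libraries without the tag. Both strains are h- with the alleles torSE::KanMX6 and fkh1::URA+, ura4-D18, ade6-M210, leu1-32 and the ribosome-bound anchor leu1-32::(nmt1-rpl13-2FKBP12-leu1+), and both received rapamycin at 2.5 µg/ml for 2 h, so that rapamycin and the anchor are shared and only the tag differs. Relocalised Pac1 could still act in the cytoplasm. In the pac1-ts experiment, 2 numbered sets of libraries with the thermosensitive allele pac1-G1024A, taken here as 2 clones, were sequenced at 37°C after a shift of 2 h and at 30°C, which the study treats as semi-restrictive for this allele. They were compared with 1 WT library per temperature from the parent strain. The study's own list of datasets instead names replicated WT libraries and a single pac1-ts strain for this experiment. The paper's text, however, names 2 independent pac1-ts clones and a WT parent strain. It matches the sample labels, which number the pac1-ts libraries and not those of WT. The labels were followed, so no spread of WT was measured. All carry h+, ade6M210, leu1-32, ura4-D18 and his3-D1. In the exonuclease experiment, dhp1 and dis3 together, dis3 alone or dhp1 alone had been placed under the thiamine-repressible promoter nmt81, and these strains and WT cells were grown in 60 µM thiamine, for 12 to 15 h in the promoter strains, with 1 library each. The strain labels are h? with ade6-M? for the double strain, h? with ade6? for the dis3 strain, h- with ade6-M210 for the dhp1 strain and h+ with ade6-M216 for WT, all with leu1-32, ura4-D18 and his3-D1.

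Antisense transcription is common in fission yeast, where neighbouring genes lie close together and most antisense RNAs are kept at low levels by RNA decay. Pac1 is the RNase III of this yeast and cuts double-stranded RNA, usually the stem of a hairpin. Dis3 is the 3′ to 5′ exonuclease of the exosome and Dhp1 the 5′ to 3′ exonuclease that acts in the nucleus on RNA with a free 5′ end, including the RNA left behind by a transcribing polymerase after cleavage. The comparisons therefore ask how antisense RNAs and their sense partners stand when Pac1 leaves the nucleus, when its thermosensitive form is present, when cells are heated, and when either exonuclease is to be depleted.

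Counted fragments per library ranged from 6836270 to 53258725. The pac1-ts libraries came from another kit than the others, and rRNA rows took 11.3% to 17.6% of their counts, against 0.128% to 3.27% elsewhere. pac1 had 94.4 and 85.1 CPM (counts scaled to the library total) in pac1-ts at 37°C against 79.9 CPM in WT, and 110 and 113 CPM in pac1-ts at 30°C against 216 CPM in WT, while in the anchor-away strain the protein and not its mRNA is the target. The targeted mRNAs did not bear out the label of the library labelled double, and in the single labelled libraries they lay below WT by less than 2-fold. dis3 had 222 CPM in the library labelled double, 153 CPM in the library labelled dis3 and 202 CPM in WT, and dhp1 had 333 CPM in the library labelled double, 142 CPM in the library labelled dhp1 and 180 CPM in WT. In the library labelled dhp1, dis3 had 142 CPM, below its level in that labelled dis3. These libraries are therefore named by their labels throughout, and each direction drawn from them rests on those labels.

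Antisense lncRNAs took a small share of all counts in every library. The share was 0.458% and 0.469% in Pac1-AA against 0.384% and 0.381% in CTL, 1.60% and 1.81% in pac1-ts at 37°C against 1.12% in WT, and 0.948% and 1.08% in pac1-ts at 30°C against 0.590% in WT. Every mutant library lay above its control, and the highest shares were in the exonuclease experiment, with 3.87% in the library labelled double, 2.69% in that labelled dis3 and 1.77% in that labelled dhp1 against 0.791% in WT. SPNCRNA.1597 alone held 57731 of 278520 and 66914 of 289977 antisense counts in pac1-ts at 37°C, against 1243 of 184287 in WT. At 30°C it held 44619 of 163601 and 52428 of 182352 in pac1-ts, against 934 of 104744 in WT. The shares were not computed without this row. In level per length, the median antisense lncRNA had 1.55 to 7.75 FPKM (counts scaled by library total and span) in the 14 libraries and the median partner 24.8 to 41.0 FPKM. An antisense lncRNA stood above its own partner per length in 74 to 214 of the 756 pairs. In all 14 libraries, 28 of the antisense lncRNAs had no count.

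**Figure D1:**
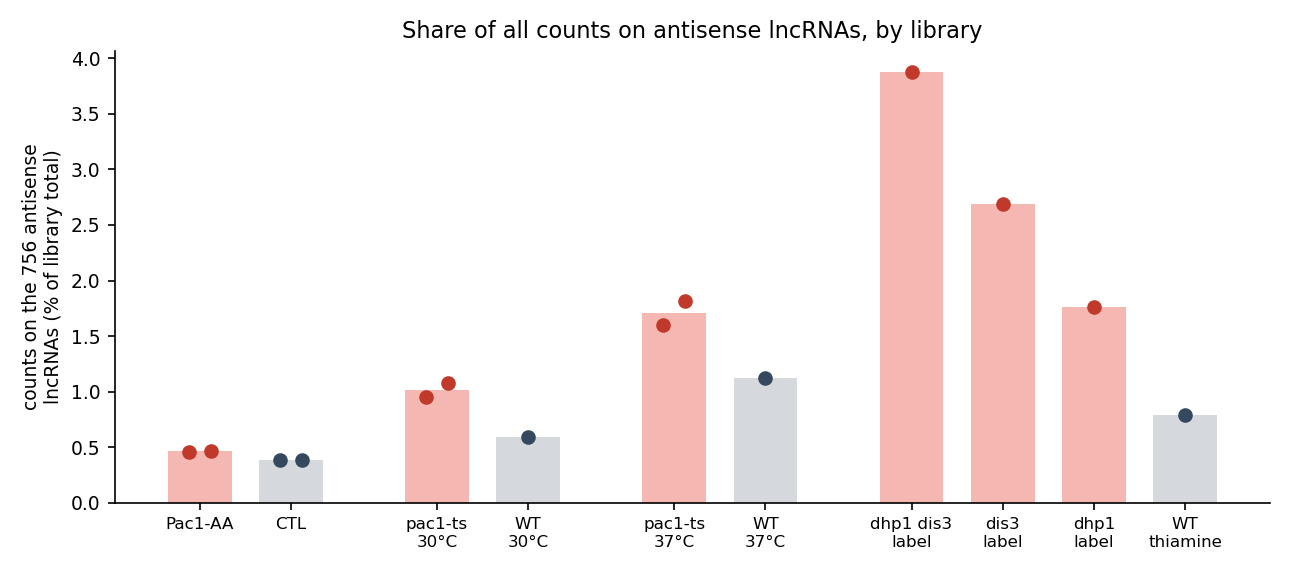
Counts on the 756 antisense lncRNAs as % of all counts in a library (vertical axis) for each group (horizontal axis). Points are libraries and bars their mean, red for mutants and labelled strains and grey for controls, and the share ran between 0.381% in CTL and 3.87% in the library labelled double.

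The antisense lncRNAs are mostly long and unspliced. Their spans ran from 76 to 5113 nt with a median of 1302 nt, and 754 of the 756 have a single exon. The median overlap was 90.3% of the span, 383 overlapped by at least 90%, and seen from the partner, 255 cover its start, 158 its end, 103 both ends and 240 lie inside it. On the same strand, 206 share part of their span with another row, and for these a fragment that touches both rows was not counted. Chromosome I carries 341, chromosome II 273 and chromosome III 142. The sense partner can also leak into antisense counts when strand marking is imperfect. Among the 50 pairs with the strongest partners in level per length, antisense levels per length were at a median of 0.236% to 3.22% of the sense levels over the 14 libraries. In every library at least 1 of these pairs had no antisense count. Such a 0 can also arise where fragments shared with another row were not counted, so it sets no limit on leakage.

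Because Pac1 recognises hairpins, the predicted hairpins are shown for the 6 antisense lncRNAs that were higher in both Pac1 mutants, as described in the following paragraphs. Each is the local structure with the lowest predicted energy within 80 nt, found by RNALfold in the RefSeq sequence of build ASM294v3, written 5′ to 3′ on the strand of the lncRNA, with paired bases in capitals.
SPNCRNA.1597, II:3393479-3393555, plus strand: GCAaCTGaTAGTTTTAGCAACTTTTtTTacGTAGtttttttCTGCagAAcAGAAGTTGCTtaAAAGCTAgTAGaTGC
SPNCRNA.888, I:3138145-3138223, minus strand: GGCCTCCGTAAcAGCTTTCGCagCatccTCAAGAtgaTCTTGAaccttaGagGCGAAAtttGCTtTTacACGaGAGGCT
SPNCRNA.687, I:799677-799752, minus strand: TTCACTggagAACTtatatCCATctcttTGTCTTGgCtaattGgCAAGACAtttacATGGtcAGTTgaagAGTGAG
SPNCRNA.1276, III:2240522-2240601, minus strand: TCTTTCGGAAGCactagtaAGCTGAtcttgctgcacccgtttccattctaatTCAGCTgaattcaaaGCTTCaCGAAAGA
SPNCRNA.1557, II:2867387-2867463, minus strand: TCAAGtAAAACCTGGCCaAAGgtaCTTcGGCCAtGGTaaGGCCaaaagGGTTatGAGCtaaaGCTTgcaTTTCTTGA
SPNCRNA.67, III:1431339-1431410, plus strand: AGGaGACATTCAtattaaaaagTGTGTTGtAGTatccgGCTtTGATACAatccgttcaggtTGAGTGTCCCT
The predicted energies were −25.5, −24.7, −22.7, −21.8, −20.5 and −19.4 kcal/mol in the order shown. Such energies are common among these RNAs. Of 724 antisense lncRNAs that matched a RefSeq entry and were folded in the same way, 15.2% were as low as SPNCRNA.1597 and 72.9% as low as SPNCRNA.67. The median was −21.8 kcal/mol for the 58 antisense lncRNAs higher in any Pac1 comparison and −21.4 kcal/mol for all 724. The hairpin of SPNCRNA.1597 has 29 base pairs and ends 61 nt before sno16, a C/D box snoRNA gene on the same strand.

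When Pac1 was excluded from the nucleus, few antisense lncRNAs changed by more than 2-fold. Of 669 that passed the filter on low counts, 6 were called higher in Pac1-AA (0.897%, where 0.616% of all 6328 rows tested were higher) and none was called lower (0.221% of all rows), where a call needed a change of more than 2-fold (1 on the log2 scale) at an adjusted p under 0.01 in edgeR's quasi-likelihood test. No antisense lncRNA with a log2 fold change below −1 had even an unadjusted p under 0.05 in edgeR, and DESeq2 called 0 lower. Below that threshold the shift was wide and small. The median log2 fold change was 0.16, with 503 of 669 above 0, against 0.00 for all rows and 0.00 for the partners. The other SPNCRNA rows had a median of 0.21, a shift of like size. Among the partners, 3 were called higher and 4 lower, and none of them faces any of the 6. The count of higher antisense lncRNAs was 15 with library totals as the only scaling, 12 with the replicate number as a block and 12 without CTL replicate 1.

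In pac1-ts the shift of the antisense class was larger. At 37°C, 48 of 720 were called higher (6.67%, where 2.26% of all 6728 rows were) and 0 lower (0.595%). At 30°C, 27 were called higher (3.75%, where 1.62% of all rows were) and 2 lower (0.788%). The median log2 fold change was 0.44 at 37°C and 0.45 at 30°C, with 621 of 720 above 0 at each temperature, while the partners had medians of −0.04 and −0.06 and the other SPNCRNA rows 0.31 and 0.35. For the count of 0 lower at 37°C, no antisense lncRNA past a log2 fold change of −1 had an unadjusted p under 0.05 in edgeR, and DESeq2 called 0. The pac1-ts libraries also had more rRNA than WT, with 16.4% and 17.6% against 11.4% at 37°C and 14.9% and 14.7% against 11.3% at 30°C, and with rRNA rows left out, antisense lncRNAs still took 1.91% and 2.20% of counts in pac1-ts against 1.27% in WT at 37°C, and 1.11% and 1.27% in pac1-ts against 0.665% in WT at 30°C. These shares include the large change of the single row SPNCRNA.1597 and were not computed without it. Among the 50 pairs with the strongest partners, the median antisense level relative to sense was 2.78% and 3.22% in pac1-ts against 2.26% in WT at 37°C, and 1.64% and 2.07% in pac1-ts against 1.07% in WT at 30°C, and the part of strand leakage in the shift was not tested. With 1 WT library per temperature, the spread of WT was taken from the clones. The count at 30°C depended on the fit, with 57 higher when pac1-ts replicate 1 at 30°C was left out, 45 when either 37°C clone library was left out, and 54 with the clone as a block, where 68 were higher at 37°C.

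**Figure D2:**
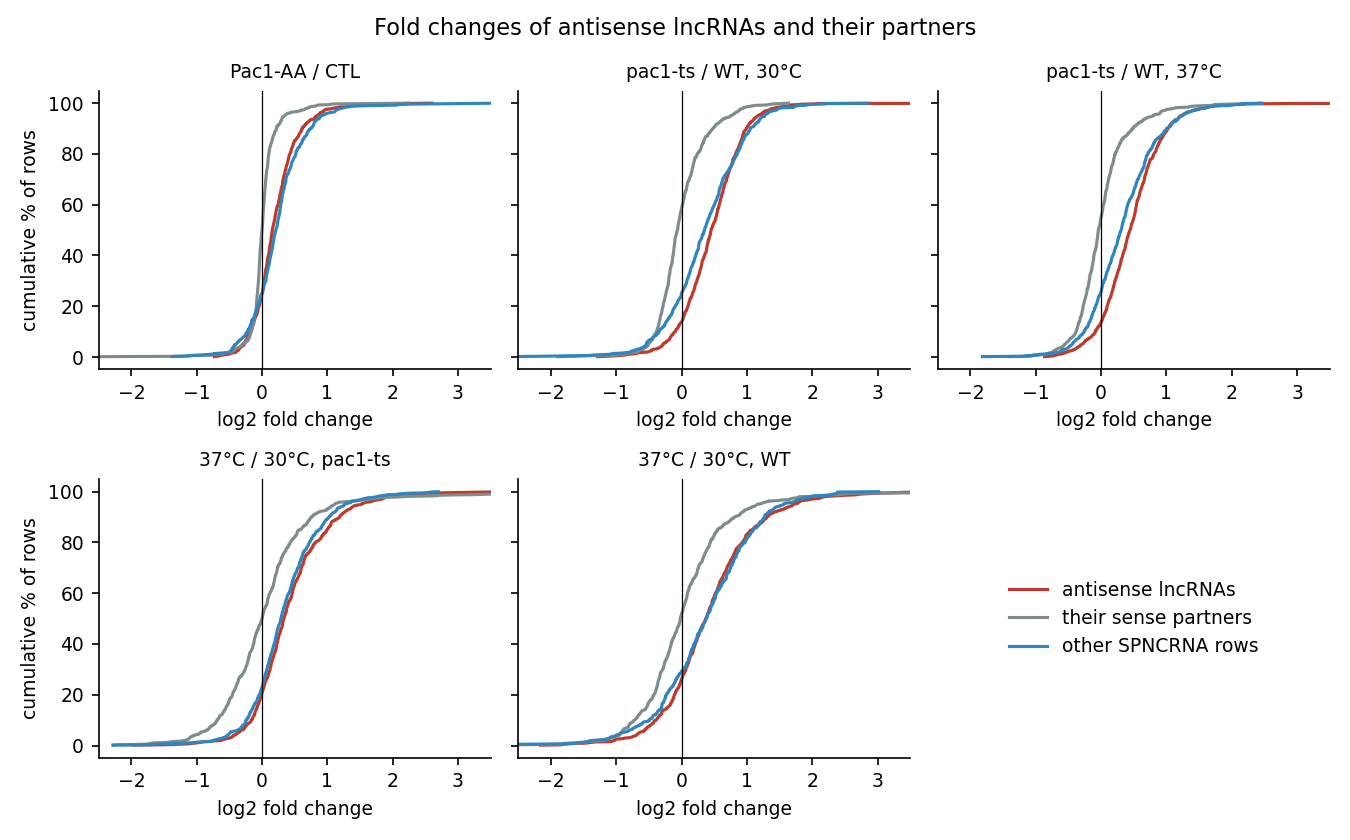
Cumulative % of rows (vertical axes) by log2 fold change (horizontal axes) in 5 comparisons, for the antisense lncRNAs in red, their sense partners in grey and other SPNCRNA rows in blue. The red curve lies right of the grey in each panel, with medians of 0.16 for Pac1-AA, 0.45 and 0.44 for the pac1-ts strain at 30°C and 37°C, and 0.34 and 0.37 for 37°C against 30°C in pac1-ts and WT.

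The 6 antisense lncRNAs called higher in Pac1-AA were all among the 27 called higher in pac1-ts at 30°C, of which they are 22.2%. Of the 6, 5 were also among the 48 called higher in pac1-ts at 37°C, which is 10.4% of the 48, and the exception was SPNCRNA.687. The anchor-away and pac1-ts comparisons share no library, while the 2 pac1-ts temperatures are 2 comparisons within 1 fit. None of the 6 partners was called in any Pac1 comparison.

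SPNCRNA.1597 had the largest change of all antisense lncRNAs in these comparisons. It had 238 and 252 normalized CPM in Pac1-AA against 42.6 and 38.7 CPM in CTL, 3012 and 3791 CPM in pac1-ts at 37°C against 65.3 CPM in WT, and 2938 and 3343 CPM in pac1-ts at 30°C against 60.6 CPM in WT. The mutant libraries lay several-fold above every control, with a larger gap in pac1-ts than in Pac1-AA, a difference between experiments that was not tested. The log2 fold change was 2.60 ± 0.05 (SE) with Pac1-AA, 5.70 ± 0.21 with pac1-ts at 37°C and 5.69 ± 0.21 with pac1-ts at 30°C. In the table it spans II:3390915-3393891 on the plus strand and covers lys9, a gene of lysine biosynthesis, which had 717 and 684 CPM in Pac1-AA against 832 and 833 CPM in CTL and was not called (log2 fold change −0.25 ± 0.04). The same span holds the whole of sno16 and part of plt1 on its own strand. The sno16 row had 0 counts in all 14 libraries. Any fragment that touches sno16 also touches the row of the lncRNA on that strand and was not counted. The 0 was therefore fixed by the counting and says nothing about the level of sno16 RNA. The plt1 row was not called in any of the Pac1 comparisons, with a log2 fold change of −0.01 in Pac1-AA. In the RefSeq annotation the lncRNA spans 2201 nt and stops 3 nt before sno16, whereas it spans 2977 nt here. RNA of a longer sno16 precursor and RNA of the lncRNA cannot be told apart in this row. The paper reports Northern blots in which sno16 precursors extended at the upstream end accumulated after Pac1 left the nucleus. It also predicts a hairpin shortly before the mature snoRNA.

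The other 5 face genes of chromatin and of the cell cortex and had log2 fold changes of 1.07 to 2.08 where they were called. SPNCRNA.1276 lies inside brl1, which encodes a subunit of the histone H2B ubiquitin ligase. It had 24.3 and 23.1 CPM in Pac1-AA against 5.99 and 7.06 CPM in CTL, 152 and 146 CPM in pac1-ts at 37°C against 62.7 CPM in WT, and 39.1 and 42.2 CPM in pac1-ts at 30°C against 9.61 CPM in WT. Each mutant pair lay above its control, with log2 fold changes of 1.84 ± 0.08, 1.25 ± 0.09 and 2.08 ± 0.12, and WT at 37°C lay above the mutants at 30°C.

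SPNCRNA.1557 lies inside lid2, a JmjC-domain histone demethylase gene. It had 20.0 and 20.3 CPM in Pac1-AA against 5.73 and 6.53 CPM in CTL, 22.6 and 21.5 CPM in pac1-ts at 37°C against 7.62 CPM in WT, and 24.3 and 23.0 CPM in pac1-ts at 30°C against 7.60 CPM in WT. Its change was of like size in the 3 comparisons, with log2 fold changes of 1.70 ± 0.08, 1.53 ± 0.16 and 1.64 ± 0.17. SPNCRNA.67 lies inside epe1, whose JmjC-domain product limits the spread of heterochromatin. It had 5.30 and 5.55 CPM in Pac1-AA against 1.93 and 2.24 CPM in CTL, 20.8 and 24.1 CPM in pac1-ts at 37°C against 6.41 CPM in WT, and 10.6 and 12.5 CPM in pac1-ts at 30°C against 4.35 CPM in WT. The groups did not overlap, with log2 fold changes of 1.36 ± 0.14, 1.80 ± 0.20 and 1.41 ± 0.23.

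SPNCRNA.888 lies at the end of end4, an endocytosis gene of cortical actin patches. It had 3.42 and 3.54 CPM in Pac1-AA against 1.56 and 1.71 CPM in CTL, 108 and 110 CPM in pac1-ts at 37°C against 26.8 CPM in WT, and 19.7 and 19.6 CPM in pac1-ts at 30°C against 6.17 CPM in WT. Both the mutant and the higher temperature went with higher levels, and the log2 fold changes by strain were 1.07 ± 0.15, 2.02 ± 0.10 and 1.67 ± 0.13. SPNCRNA.687 lies inside cph1, a gene for a PHD-finger protein of the Clr6 histone deacetylase complex. It had 5.30 and 6.59 CPM in Pac1-AA against 1.72 and 1.68 CPM in CTL and 10.3 and 11.7 CPM in pac1-ts at 30°C against 3.05 CPM in WT, but 11.5 and 10.1 CPM in pac1-ts at 37°C against 11.6 CPM in WT. The log2 fold change of this RNA was 1.81 ± 0.18 with Pac1-AA, 1.84 ± 0.25 with pac1-ts at 30°C and −0.09 ± 0.19 with pac1-ts at 37°C.

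**Figure D3:**
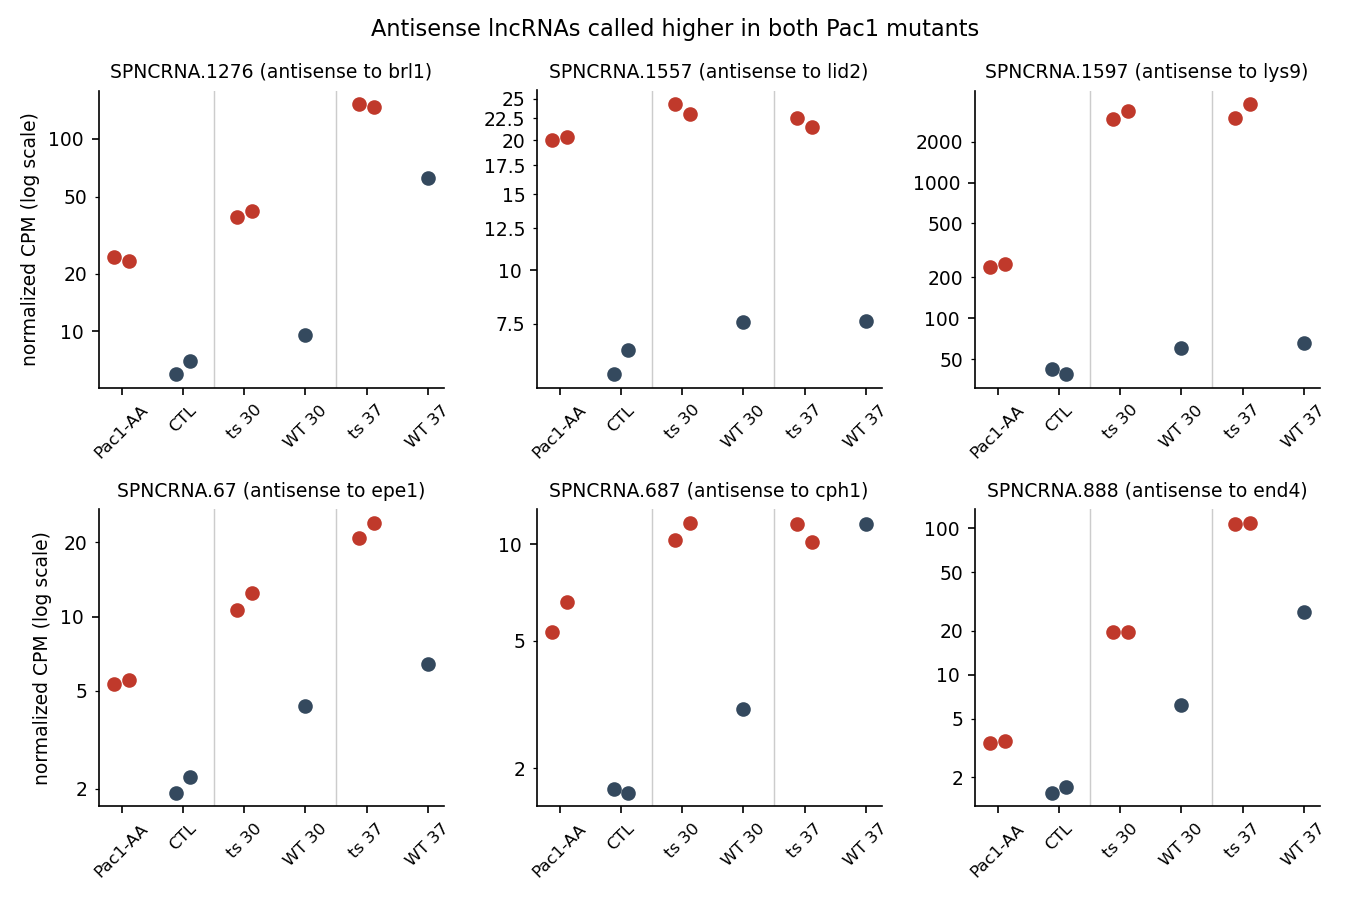
Normalized CPM on a log axis for the 6 antisense lncRNAs called higher in both Pac1 mutants, each point a library, mutants red and controls dark blue, with ts and WT at 30°C and 37°C. SPNCRNA.1597 reaches 3791 CPM in pac1-ts at 37°C against 65.3 CPM in WT, while SPNCRNA.687 has no gap between pac1-ts and WT at 37°C.

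Further antisense lncRNAs were called in pac1-ts and not in Pac1-AA, a difference between experiments that was not tested. SPNCRNA.1475, at the start of tra1, a SAGA coactivator subunit gene, had 14.6 and 17.4 CPM in pac1-ts at 37°C against 3.47 CPM in WT (log2 fold change 2.20 ± 0.24), and 0.269 and 0.325 CPM in Pac1-AA against 0.313 and 0.311 CPM in CTL. SPNCRNA.15, also named prl15 and antisense to crt10, had 4.90 and 5.44 CPM in pac1-ts at 37°C against 1.52 CPM in WT and 4.21 and 5.17 CPM in pac1-ts at 30°C against 1.36 CPM in WT. At 30°C, the 2 antisense lncRNAs that were lower were SPNCRNA.953, antisense to the protein kinase gene ppk18, with 42.0 and 46.0 CPM in pac1-ts against 107 CPM in WT, and SPNCRNA.1134, with 8.82 and 8.61 CPM in pac1-ts against 18.1 CPM in WT. Neither was called at 37°C, and without pac1-ts replicate 1 at 30°C the count of lower ones was 4.

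The partner of a raised antisense lncRNA was not called in 45 of 48 pairs at 37°C and in all 27 at 30°C. Few partners were called at all, 18 of 702 higher and 3 lower at 37°C and 7 and 5 at 30°C, so these counts show nothing particular to the pairs with a raised antisense RNA. The 3 exceptions at 37°C were SPNCRNA.1223, which was higher together with its partner SPCC191.10 (log2 fold changes of 1.95 ± 0.28 and 1.55 ± 0.29), and, in opposite directions, SPNCRNA.1517 with srm1 and SPNCRNA.1523 with grp2, both named after their values were seen. SPNCRNA.1517 had 23.3 and 22.5 CPM in pac1-ts at 37°C against 9.51 CPM in WT, while srm1, the spermidine synthase gene, had 98.7 and 88.9 CPM in pac1-ts against 195 CPM in WT. SPNCRNA.1523 had 11.9 and 12.0 CPM in pac1-ts at 37°C against 4.57 CPM in WT, while grp2, a Golgi GRIP-domain protein gene, had 23.3 and 23.8 CPM against 50.1 CPM in WT. Across the 715 pairs with both rows tested, the correlation of antisense and sense log2 fold changes was −0.11 at 37°C and −0.10 at 30°C, and −0.01 over 663 pairs in Pac1-AA. These are descriptions across pairs that share their libraries.

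Sharing the strand with another row went with more calls in pac1-ts. At 37°C, 20 of 170 antisense lncRNAs with such a row were higher (11.8%) against 28 of 550 without one (5.09%), and at 30°C 11 of 170 (6.47%) against 16 of 550 (2.91%). The same division gave medians of 0.51 against 0.43 at 37°C and 0.46 against 0.45 at 30°C. Having a gene of the same strand that ended within 500 nt upstream went with 6.13% of calls against 6.82% without one at 37°C, which are close. Partners of called antisense lncRNAs were somewhat stronger, with a median of 46.1 FPKM against 35.5 FPKM for the partners of all tested ones at 37°C and 30.2 FPKM against 25.3 FPKM at 30°C.

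Of 40 genes of RNA decay, RNA interference and chromatin silencing listed as machinery, none was called in Pac1-AA, where 0.616% of all rows were higher and 0.221% lower, and pac1 itself was the only one called in the pac1-ts experiment. It was lower in pac1-ts at 30°C (log2 fold change −1.01), lower at 37°C than at 30°C in WT (−1.85), and its strain effect differed by 1.26 between temperatures. Against the WT thiamine library, and without a test, 5 of the 40 stood more than 2-fold higher and 3 lower in the library labelled double (25.2% and 19.0% of all rows), 11 and 2 in that labelled dis3 (24.5% and 19.8%) and 1 and 2 in that labelled dhp1 (16.9% and 10.9%).

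The strain effect itself differed between temperatures for 2 of 720 antisense lncRNAs, both with a smaller effect at 37°C (0.282% of all rows were in that direction), and for 0 in the other direction (0.713%), where 10 past a log2 value of 1 had an unadjusted p under 0.05 in edgeR and DESeq2 called 0. With the clone as a block the counts were 6 and 3. They were 5 and 1 without pac1-ts replicate 1 at 30°C, 4 and 2 without replicate 1 at 37°C, 4 and 0 without replicate 2 at 37°C, and 3 and 2 without replicate 2 at 30°C. The 2 were SPNCRNA.687 and SPNCRNA.1271. SPNCRNA.1271 lies inside ckk2, a protein kinase gene, and had 32.9 and 28.8 CPM in pac1-ts at 37°C against 35.5 CPM in WT, and 8.76 and 8.80 CPM in pac1-ts at 30°C against 2.92 CPM in WT. WT therefore stood at the level of the mutant at 37°C and below it at 30°C.

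More antisense lncRNAs were called between temperatures than between strains. In pac1-ts, 106 of 720 were higher at 37°C than at 30°C (14.7%, where 6.29% of all rows were) and 7 lower (4.80% of all rows). In WT, 97 were higher (13.5%, where 5.87% of all rows were) and 13 lower (4.49%). Of the higher ones, 67 were called in both strains, which is 63.2% of those in pac1-ts and 69.1% of those in WT, and 4 of the lower ones. The WT comparison has no replicate at either temperature, and its spread was taken from the pac1-ts clones. The WT calls and SEs for heat rest on that spread, so the overlap is not a repeat in another replicated strain. The median log2 fold change was 0.34 in pac1-ts and 0.37 in WT, against 0.02 and −0.02 for all rows and 0.00 and −0.02 for the partners. With library totals as the only scaling the median of all rows moved to 0.30 in pac1-ts and to 0.40 in WT, and the antisense median lay above it by 0.32 and 0.39. The counts then became 169 higher and 3 lower in pac1-ts and 191 higher and 4 lower in WT. The other SPNCRNA rows had medians of 0.29 and 0.38.

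Of the 5 largest rises with heat in pac1-ts, 4 were of RNAs that cover a gene start, and the fifth was SPNCRNA.564, at the end of guf1. SPNCRNA.602 covers the start of nhe1, the gene of a plasma membrane sodium and proton antiporter, at I:50851-51545. It had 43.2 and 58.7 CPM at 37°C against 3.62 and 5.80 CPM at 30°C in pac1-ts, and 48.3 CPM against 2.47 CPM in WT, with log2 fold changes of 3.43 ± 0.20 and 4.29 ± 0.32. Its partner was called higher in pac1-ts (1.27 ± 0.09) and had 124 CPM at 37°C against 78.5 CPM at 30°C in WT, where it was not called. SPNCRNA.1480 had 202 and 239 CPM at 37°C against 16.8 and 15.5 CPM at 30°C in pac1-ts, and 139 CPM against 18.2 CPM in WT, and its partner SPBC16E9.20 was called higher in pac1-ts (1.04 ± 0.25). SPNCRNA.1211 had 74.6 and 96.8 CPM at 37°C against 8.49 and 10.6 CPM at 30°C in pac1-ts, and 71.5 CPM against 8.64 CPM in WT. SPNCRNA.1364, at the start of the serine protease gene htr11, had 71.0 and 88.0 CPM at 37°C against 10.8 and 11.7 CPM at 30°C in pac1-ts, and htr11 was higher too, with log2 fold changes of 2.13 ± 0.09 in pac1-ts and 2.03 ± 0.13 in WT. In WT, SPNCRNA.1271 stood out with 35.5 CPM at 37°C against 2.92 CPM at 30°C (3.60 ± 0.21), and SPNCRNA.1611, which covers both ends of the histone H4 gene hhf3, with 43.7 CPM against 4.22 CPM. SPNCRNA.564 was called in pac1-ts at levels below 1 CPM, with 0.782 and 0.963 CPM at 37°C against 0.132 and 0.128 CPM at 30°C, and it was not called without pac1-ts replicate 1 at 30°C.

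In 2 of the 7 pairs whose antisense RNA fell with heat in pac1-ts, and in 3 of 13 in WT, the partner was called higher, where 6.84% of all partners were higher in each strain. SPNCRNA.1505 covers SPBC24C6.09c, a phosphoketolase family gene, from end to end. It fell to 27.1 and 25.7 CPM at 37°C, against 103 and 104 CPM at 30°C, in pac1-ts, and to 39.9 CPM, against 120 CPM, in WT. The partner had 669 and 628 CPM at 37°C against 21.3 and 23.1 CPM at 30°C in pac1-ts and 369 CPM against 15.5 CPM in WT, so that the stronger strand changed over in both strains. SPNCRNA.613, inside the glyoxylase gene hsp3102, had 1.93 and 3.34 CPM at 37°C against 7.97 and 7.33 CPM at 30°C in pac1-ts, where hsp3102 had 223 and 265 CPM against 13.9 and 15.7 CPM. In WT it had 1.94 CPM against 3.96 CPM and was not called. SPNCRNA.1374, named after its values were seen, had 21.3 CPM at 37°C against 44.2 CPM at 30°C in WT, and its partner cta3, a cation-transporting P-type ATPase gene, had 100 CPM against 15.7 CPM. Scaled by library totals alone, SPNCRNA.1374 was no longer called in WT (log2 fold change −0.63).

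The reverse also occurred. SPNCRNA.607, named after its values were seen, had 84.9 and 88.2 CPM at 37°C against 22.4 and 21.9 CPM at 30°C in pac1-ts, and its partner pfl8, a cell-surface glycoprotein gene, 16.4 and 20.2 CPM against 62.5 and 72.5 CPM. Counted over all pairs with both rows tested, in pac1-ts 8 pairs were higher on both strands, 7 had a higher antisense RNA with a lower partner and 2 the reverse, and in WT the counts were 7, 2 and 3. The partner was called in neither direction for 90 of 105 higher antisense RNAs in pac1-ts and for 88 of 97 in WT. Over all 702 partners tested, 48 were called higher and 30 lower in pac1-ts and 48 and 24 in WT, so the share of partners called beside a raised antisense RNA was near that of all partners. The correlation across 715 pairs was −0.14 in pac1-ts and −0.11 in WT, as a description.

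**Figure D4:**
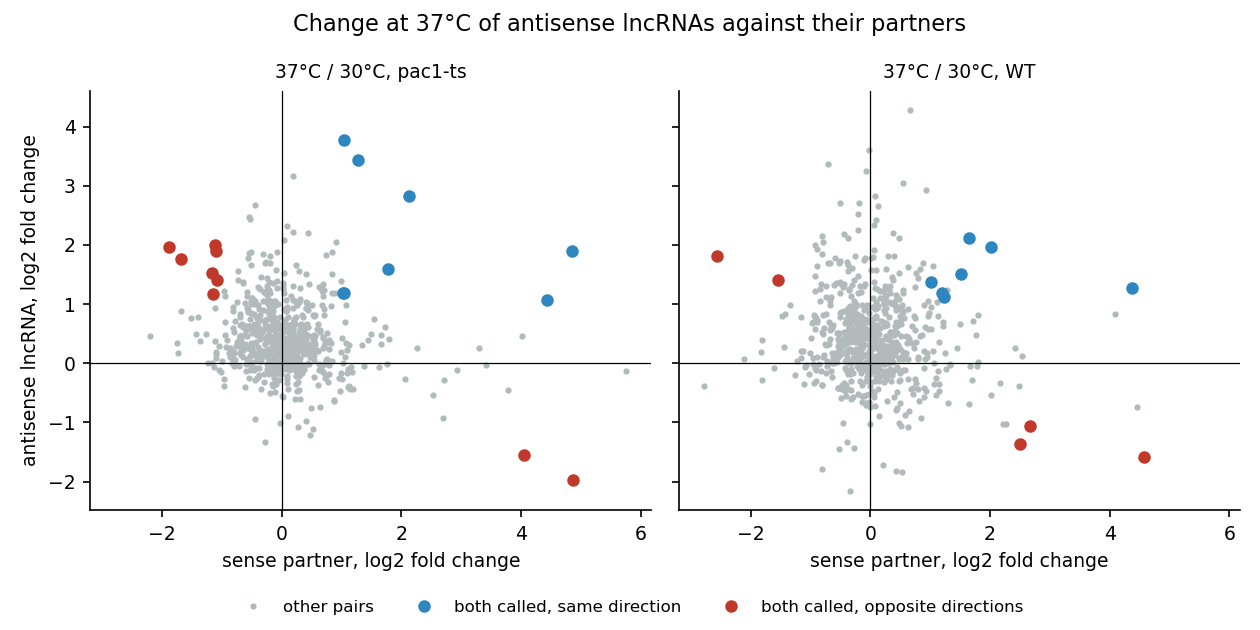
Log2 fold change at 37°C against 30°C of each antisense lncRNA (vertical axes) and of its sense partner (horizontal axes) in pac1-ts and in WT, with pairs called on both strands in colour. In pac1-ts 8 blue pairs are higher on both strands and 9 red pairs go opposite ways, SPNCRNA.1505 with SPBC24C6.09c at −1.97 and 4.87 being at the lower right.

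By position, the antisense lncRNAs that cover the partner's end were called higher most often, 29 of 149 (19.5%) in each strain, against 31 of 244 (12.7%) in pac1-ts and 28 of 244 (11.5%) in WT for those that cover the start. Heat-shock factor elements and cAMP response elements were looked for in the 250 nt before and 50 nt after each start, on both strands, by RefSeq starts of build ASM294v3. The heat-shock element GAANNTTCNNGAA was in 0.952% of 105 windows of antisense lncRNAs higher at 37°C in pac1-ts and 1.04% of 96 in WT, against 0.829% of 724 antisense windows and 0.549% of all 6560 windows. The element TGACGT was in 10.5% and 5.21%, against 7.73% of antisense windows and 6.33% of all windows. For TGACGT the shares of the higher ones lay on either side of the antisense share, and each heat-shock element share of the higher ones is 1 window. Of 233 windows of protein-coding rows higher at 37°C in WT, 0.429% had the heat-shock element and 12.9% had TGACGT. This heat-shock pattern was thus no more frequent in heat-raised protein-coding windows than in all windows, so its shares cannot tell heat-raised RNAs from others.

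Among the antisense lncRNAs, 47 face a gene on the list of meiotic genes. The list was made by name only, from symbols beginning mug, meu, spo, mei, mcp, rec, isp, mde, crs, mfr or dmc. Whether an RNA is removed from growing cells by the Mmi1 pathway or induced in meiosis was not used. None of 44 tested was called in either pac1-ts comparison, nor any of 41 in Pac1-AA, while 4 of the 41 meiotic partners were called higher in pac1-ts at 37°C. Of all antisense lncRNAs tested, 6.67% were higher at 37°C, 3.75% at 30°C and 0.897% in Pac1-AA, and of all partners 2.56% were higher at 37°C. With heat, SPNCRNA.1180 (antisense to rec11) and SPNCRNA.815 (mug68) were higher in WT, SPNCRNA.904 (dmc1) in pac1-ts, and SPNCRNA.1452 (mug124) was lower in WT, with 35.7 CPM at 37°C against 89.4 CPM at 30°C. Scaled by library totals alone, SPNCRNA.1452 was not called (log2 fold change −0.91). Of the meiotic partners, 5 of 41 were higher at 37°C in each strain and 0 lower, where 6.84% of all partners were higher in each strain and 4.27% in pac1-ts and 3.42% in WT were lower. No antisense lncRNA faces a gene on the list of heat-shock chaperones.

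The exonuclease libraries gave the widest differences, read without a test because each strain has 1 library. Ratios are of counts scaled by TMM factors with 0.5 added, over the 646 antisense lncRNAs with a mean count of at least 10, and intervals given are exact 95% intervals for counting error only. In the library labelled double, 475 stood more than 2-fold above WT (73.5%, where 25.2% of all 6192 rows did) and 21 below (19.0%). In that labelled dis3, 430 stood above (66.6%, where 24.5% of all rows did) and 26 below (19.8%). In that labelled dhp1, 357 stood above (55.3%, where 16.9% of all rows did) and 37 below (10.9%). The median log2 ratios were 2.12, 1.63 and 1.23, while the partners had −0.01, 0.04 and −0.07 and the other SPNCRNA rows 2.37, 2.12 and 1.06. WT is the shallowest library, and 81 of the 756 had no count in it, of which 18 passed the filter. Among 454 with at least 10 counts in WT, the numbers above were 291, 260 and 190 and the medians 1.58, 1.27 and 0.73.

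**Figure D5:**
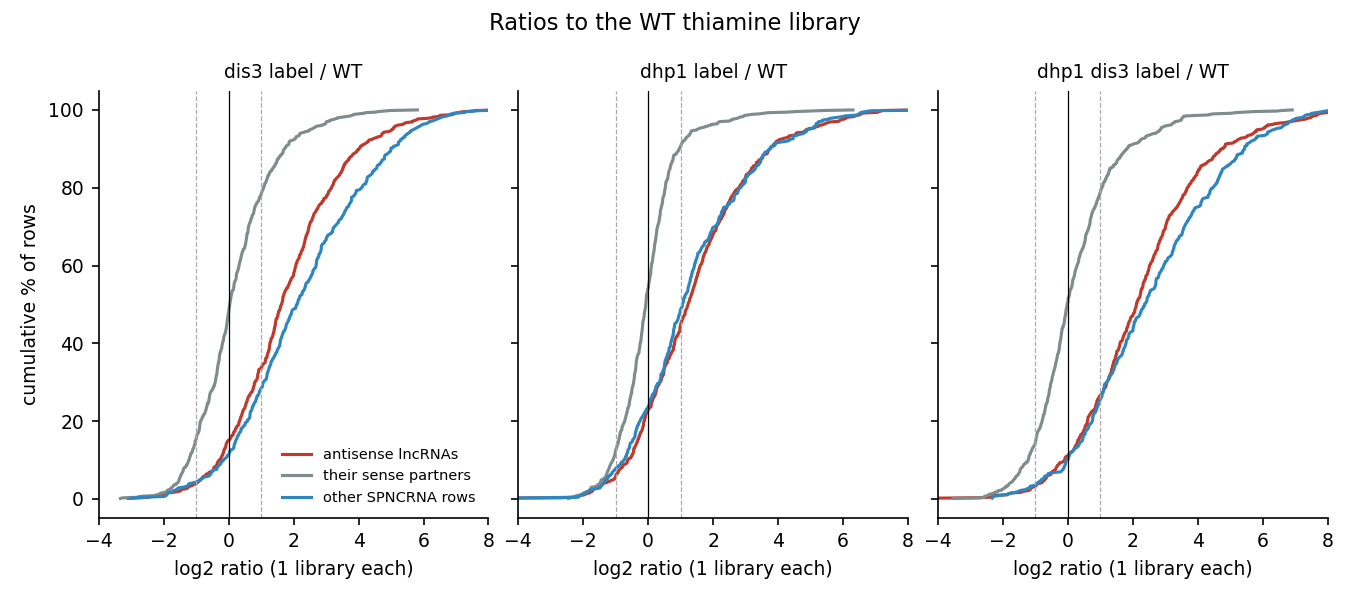
Cumulative % of rows (vertical axis) by log2 ratio to the WT thiamine library (horizontal axes), 1 library each, for antisense lncRNAs in red, sense partners in grey and other SPNCRNA rows in blue, with dashed lines at 2-fold. The median antisense ratio is 1.63 in the library labelled dis3, 1.23 in that labelled dhp1 and 2.12 in that labelled double, while partners centre near 0.

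The labelled single strains overlapped in part. Of the 646, 302 stood above WT by more than 2-fold in both, 128 only in the library labelled dis3, 55 only in that labelled dhp1 and 161 in neither, and 30 of the 161 were above in the library labelled double. The library labelled double was above both singles for 358 (55.4%), and by more than 2-fold above both for 79. Against the library labelled dis3, 150 stood more than 2-fold higher in the double (23.2%, where 6.86% of all rows did) and 17 lower (3.05%), with a median of 0.42. Against the library labelled dhp1 the numbers were 285 higher (44.1%, where 23.1% of all rows did) and 43 lower (18.4%), with a median of 0.83, and with library totals as the only scaling they were 189 and 89. All these comparisons share libraries.

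The largest ratios belonged to RNAs that were nearly absent from WT. The ranking favours such RNAs, because the filter used the mean count over the libraries and not the WT count. With 0 counts in WT, the size of a ratio also depends on the small value added to each count. Their place at the top was therefore not read as a result. SPNCRNA.665 covers the start of aur1, the gene of inositol phosphorylceramide synthase, at I:598131-599439. It had 634 counts in the library labelled double, 190 in that labelled dis3, 77 in that labelled dhp1 and 0 in WT, and against a floor of 3 counts in WT it was at least 186-fold, 47.5-fold and 18.6-fold higher. SPNCRNA.572, at the end of the ubiquitin ligase gene rkr1, had 1046, 673 and 49 counts in the libraries labelled double, dis3 and dhp1 against 3 in WT, so its log2 ratio was 8.07 (6.71 to 10.54), 7.21 (5.84 to 9.68) and 3.39 (1.93 to 5.89). SPNCRNA.329 had 997, 260 and 17 counts against 1 in WT. SPNCRNA.822, inside the nucleoporin gene seh1, had 140, 105 and 38 counts against 0 in WT. SPNCRNA.1289 (ubp12) and SPNCRNA.921 (ghs2) had 0 in WT as well and from 57 to 152 counts elsewhere.

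Others followed the dhp1 label more than the dis3 label. SPNCRNA.918, named after its values were seen, covers the start of rrp1, a DNA helicase gene, and had 25710 counts in the library labelled double, 1332 in that labelled dis3 and 13010 in that labelled dhp1 against 109 in WT. Its log2 ratios were 7.69 (7.43 to 7.98), 3.19 (2.91 to 3.49) and 6.43 (6.16 to 6.72), and rrp1 had 0.55, 0.24 and −0.05. SPNCRNA.565 (pmp1, a MAP kinase phosphatase gene) had 1171, 363 and 1083 counts against 5 in WT, and SPNCRNA.1507 (ulp1, a SUMO protease gene) 445, 278 and 446 against 2. SPNCRNA.579 (ggc1, a guanine nucleotide transporter gene) had 42, 2 and 180 counts against 0. Over all 646, the library labelled dis3 was more than 2-fold above that labelled dhp1 for 202 and more than 2-fold below it for 112.

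Few stood lower. Among them were SPNCRNA.1510 (ape2), with 25, 114 and 5 counts in the libraries labelled double, dis3 and dhp1 against 155 in WT, and SPNCRNA.1302, inside the enolase gene eno102, with 27, 32 and 62 counts against 125. eno102 itself had 281, 306 and 44 counts against 22 in WT. SPNCRNA.914 stood lower in the library labelled dhp1 only, with 105, 148 and 18 counts against 86, while its partner SPAC16E8.05c had 2002, 1411 and 391 against 33. SPNCRNA.1417 (meu18, a gene of meiotic expression) had 121, 191 and 132 counts against 354, and SPNCRNA.1344 had 245, 383 and 143 against 498. The partners did not follow 1 pattern, since meu18 stood above WT in all 3 libraries (log2 ratios of 1.89, 0.94 and 0.75) and ape2 below it (−1.58, −1.45 and −0.46).

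Both strands of a pair stood on the same side of WT about as often as on opposite sides in the libraries labelled double and dis3. In the library labelled double, 83 of 640 pairs stood more than 2-fold higher on both strands, 80 had a higher antisense RNA with a lower partner, 9 the reverse and 5 were lower on both. In that labelled dis3 the numbers were 76, 73, 6 and 7, and in that labelled dhp1 19, 50, 2 and 6. The antisense RNA was higher in 471, 428 and 354 of the 640 pairs in the libraries labelled double, dis3 and dhp1. Of all 699 partners that passed, 21.3%, 21.7% and 9.44% stood more than 2-fold higher and 14.2%, 15.2% and 12.3% lower. What the pair counts owe to these partner shares was not tested. The correlation across pairs was −0.22, −0.16 and −0.12, as a description of pairs within the same libraries. Of the antisense lncRNAs facing the meiotic list, 22, 23 and 15 of 40 stood above in the libraries labelled double, dis3 and dhp1, with medians of 1.49, 1.29 and 0.83. Over all antisense lncRNAs the shares above were 73.5%, 66.6% and 55.3% and the medians 2.12, 1.63 and 1.23, and 25.2%, 24.5% and 16.9% of all rows stood above. The motif TNAAAC, the core to which Mmi1 binds, was counted on the RNA strand of RefSeq spans. It occurred in 87.7% of 724 antisense lncRNAs at 1.94 per kb, in 75.6% of other SPNCRNA rows at 2.08 per kb and in 92.6% of partner genes at 1.79 per kb. The median spans of these sets were 1310, 797 and 1921.5 nt. Among antisense lncRNAs, it occurred in 86.6% of those above 2-fold in the library labelled dis3 at 1.97 per kb, against 91.7% of the rest at 1.87 per kb. The share and the density therefore went opposite ways.

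The 6 antisense lncRNAs raised in both Pac1 mutants also had values here. SPNCRNA.687 had 166, 220 and 279 counts in the libraries labelled double, dis3 and dhp1 against 13 in WT, and SPNCRNA.67 46, 37 and 139 against 1. SPNCRNA.888 had 43, 58 and 70 counts against 9, and SPNCRNA.1276 75, 56 and 147 against 22. SPNCRNA.1557 had 20, 19 and 27 against 15, with a log2 ratio of 0.22 (−0.81 to 1.30), −0.07 (−1.13 to 1.01) and 0.37 (−0.58 to 1.40), so no difference was detectable at this depth. SPNCRNA.1597 had 1816, 4256 and 605 against 626. By log2 ratio, SPNCRNA.687, SPNCRNA.67, SPNCRNA.888 and SPNCRNA.1276 were highest in the library labelled dhp1 (3.91, 6.16, 2.44 and 2.25), with intervals that overlap those of the library labelled double and of that labelled dis3 for each of the 4. SPNCRNA.1597 was highest in that labelled dis3 (2.35).

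The most abundant antisense lncRNAs by median FPKM over the 14 libraries were SPNCRNA.1597 (77.7 FPKM), SPNCRNA.1452 (73.8), SPNCRNA.945 (66.7), SPNCRNA.1626 (59.4) and SPNCRNA.519 (37.6). The order pools experiments in which levels differed widely, since in the anchor-away libraries SPNCRNA.1452 had only 0.200 and 0.126 FPKM in Pac1-AA against 0.252 and 0.200 FPKM in CTL, and SPNCRNA.945 0.112 and 0.182 FPKM in Pac1-AA against 0.0406 and 0.121 FPKM in CTL. SPNCRNA.1626 overlaps the end of mbx2, a MADS-box transcription factor gene of flocculation, and stood at 1455 FPKM in the library labelled double, 1062 FPKM in that labelled dis3, 158 FPKM in that labelled dhp1 and 215 FPKM in WT. SPNCRNA.519, antisense to the kinase gene nnk1, had 152, 229 and 47.5 FPKM against 42.8 FPKM, and SPNCRNA.1452 806, 619 and 67.8 FPKM against 106 FPKM. SPNCRNA.945 had 1333, 471 and 198 FPKM against 289 FPKM. None of the 5 stood more than 2-fold above WT in the library labelled dhp1. In level per length, SPNCRNA.1452, SPNCRNA.945 and SPNCRNA.1626 had a higher median than their partners, whose medians were 7.10, 6.62 and 11.9 FPKM, while lys9 with 347 FPKM and nnk1 with 47.1 FPKM were above the RNAs antisense to them.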

How the data were processed

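Strand-specific RNA-seq counts per gene from 14 libraries were used as deposited. The authors trimmed reads with Trimmomatic, aligned them with HISAT2 to build ASM294v2 and counted fragments with featureCounts, and fragments on more than 1 gene of a strand were not counted. Counts were tested in R 4.3.3 with edgeR 4.0.16 (TMM scaling, rows kept by filterByExpr at min.count 10, quasi-likelihood test, Benjamini-Hochberg adjustment over all rows). The anchor-away fit had strain, and the pac1-ts fit strain, temperature and their interaction. The SE is the absolute log2 fold change divided by the square root of F. DESeq2 1.42.0 was an alternative. Calls needed an adjusted p below 0.01 and an absolute log2 fold change above 1. The exonuclease libraries, 1 each, were compared by ratios with a pseudocount of 0.5, and their intervals (Clopper-Pearson, 95%) and floors (3 counts) cover counting error only. The study calls the anchor-away libraries biological replicates, and how the numbered pac1-ts libraries were replicated is uncertain, as its dataset list and the labels differ. A count of 3 is 0.0563 CPM in the deepest library and 0.439 CPM in the shallowest.

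The numbered pac1-ts libraries were taken as the same 2 clones at both temperatures, and same-numbered libraries deviated together (correlation 0.520), so a fit with the clone as a block is given where it moves a count. The antisense lncRNAs, the gene lists and the tests were chosen with earlier results of these data known. Named were antisense lncRNAs called in the same direction in both Pac1 mutants, the 5 largest rises and falls per tested comparison whose libraries do not overlap, the 5 highest and lowest ratios to WT per exonuclease library with a mean count of at least 50, the 5 of highest median FPKM, those facing a listed meiotic or heat gene that were called, and the sense partners. Others are said to be named after their values were seen. Hairpins were predicted with RNALfold 2.7.2, and sequences are RefSeq's for build ASM294v3, in which 724 antisense lncRNAs matched and 721 had the same start and end. Fits were tested on simulated data. Other scalings, filters, thresholds and left-out libraries were tried. One pair is not reported here.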

Additional observations from a re-analysis of the deposited data

Results flagged for a closer look

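SPNCRNA.687 and SPNCRNA.1271 had a strain effect that differed between temperatures by the interaction term of edgeR's quasi-likelihood test. For SPNCRNA.687 the log2 difference was −1.94 ± 0.32 (adjusted p = 0.0071), and for SPNCRNA.1271 it was −1.78 ± 0.26 (adjusted p = 0.0044). Both pac1-ts libraries lay above WT at 30°C, while at 37°C SPNCRNA.687 had 11.5 and 10.1 CPM in pac1-ts against 11.6 CPM in WT and SPNCRNA.1271 had 32.9 and 28.8 CPM in pac1-ts against 35.5 CPM in WT. WT has 1 library per temperature. Over the alternatives tried, the adjusted p of SPNCRNA.687 ranged between 7.0e-06 and 0.0179 and that of SPNCRNA.1271 between 7.3e-07 and 0.0101. The highest p of each, with rows kept at a mean count of at least 50, missed the threshold of 0.01, and so did SPNCRNA.687 with library totals as the only scaling. Groups had at most 2 libraries, so no single library could be tested as standing apart.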

How the results depend on the processing

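No result turned its direction. In Pac1-AA, the 6 higher antisense lncRNAs were 15 with library totals as the only scaling, 12 with the replicate number as a block, 12 at an adjusted p below 0.05, 28 at a log2 threshold of 0.5 and 7 to 12 with 1 library left out, and the 0 lower were 2 at a log2 threshold of 0.5. The anchor-away replicate numbers are only numbers (correlation 0.0643). In pac1-ts at 37°C, the 48 higher were 82 at a log2 threshold of 0.5, 30 with an overlap of at least 90%, 28 with no other row on the strand and 35 to 59 with 1 library left out, and the 0 lower were 6 at a log2 threshold of 0.5 and 0 to 1 with 1 library left out. At 30°C, the 27 higher were 54 with the block, 53 at an adjusted p below 0.05, 51 at a log2 threshold of 0.5, 16 with no other row on the strand and 26 to 57 with 1 library left out. The 2 lower were 1 with library totals, 10 at a log2 threshold of 0.5, 0 with an overlap of at least 90%, 1 with no other row on the strand and 3 to 4 with 1 library left out. For the strain effect between temperatures, the 0 in the positive direction were 3 with the block, 2 at an adjusted p below 0.05, 3 at a log2 threshold of 0.5 and 0 to 2 with 1 library left out. The 2 in the negative direction were 0 with a mean count of at least 50, 6 with the block, 4 at an adjusted p below 0.05, 1 with no other row on the strand and 3 to 5 with 1 library left out. The block moved no other count of calls by over 1.5 times.

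For 37°C against 30°C, the 106 higher in pac1-ts were 169 with library totals, 197 at a log2 threshold of 0.5, 49 with an overlap of at least 90% and 86 to 113 with 1 library left out, and the 7 lower were 3, 15 at a log2 threshold of 0.5 and 5 to 9. In WT the 97 higher were 191 with library totals, 47 with an overlap of at least 90% and 101 to 111, and the 13 lower were 4 with library totals, 21 at a log2 threshold of 0.5, 8 with no other row on the strand and 11 to 13. With an overlap of at least 90%, the exonuclease counts above WT were 239, 209 and 182 in the libraries labelled double, dis3 and dhp1 and those below were 8, 11 and 18. With a mean count of at least 50, 229 stood above in that labelled dhp1, and 7, 10 and 20 below in those labelled double, dis3 and dhp1. With at least 10 counts in WT, 291, 260 and 190 stood above. Double over dis3 gave 89 higher and 4 lower with a mean count of at least 50, 80 and 7 with an overlap of at least 90%, and 11 lower with a pseudocount of 5 and 31 without a filter. Double over dhp1 gave 189 higher and 89 lower with library totals, 140 and 23 with an overlap of at least 90%, and 19 lower with a mean count of at least 50. The stricter sets hold fewer rows by construction, and the cause of the other moves was not tested. Library totals moved the median of all rows by over 0.1 in several comparisons, and the antisense median lay above it by 0.13 to 0.19 in Pac1-AA, 0.37 to 0.58 and 0.35 to 0.51 in pac1-ts at 30°C and 37°C and 1.41 to 1.65 in the library labelled dis3 over the alternatives tried.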

Other observations

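SPNCRNA.1452 and SPNCRNA.945 differed widely between experiments whose strains also differ, as does the kit for pac1-ts. SPNCRNA.1452 had 0.115 and 0.0723 CPM in Pac1-AA and 0.156 and 0.124 CPM in CTL, but 37.3 and 45.3 CPM in pac1-ts at 37°C against 35.7 CPM in WT, and 53.2 and 54.6 CPM in pac1-ts at 30°C against 89.4 CPM in WT. SPNCRNA.945 had 0.135 and 0.217 CPM in Pac1-AA and 0.0521 and 0.155 CPM in CTL, but 62.9 and 80.3 CPM in pac1-ts at 37°C against 95.5 CPM in WT, and 82.2 and 82.3 CPM in pac1-ts at 30°C against 123 CPM in WT. The WT thiamine library, made with the same kit as the anchor-away libraries, had 65.8 CPM of SPNCRNA.1452 and 371 CPM of SPNCRNA.945. The experiments were normalized separately, and the difference between them was not tested.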
